A study of Mus musculus with 10 samples.

Results

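Aquaporins are membrane channels that let water, and in some members glycerol, ions or other small solutes, cross the lipid bilayer. The genes described here are Aqp1, Aqp2, Aqp3, Aqp4, Aqp5, Aqp6, Aqp8 and Aqp11, which were chosen by gene symbol in a TPM table (TPM are transcript units in which the reads on a gene are scaled by its length and every sample sums to the same total). They are 8 of the 55414 genes in that table, and 7 of them were among the 20000 genes with the highest mean TPM, which were the genes tested. Aqp8 was below that limit.

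In the renal collecting duct, vasopressin acts on the V2 receptor, which raises cyclic AMP, moves AQP2 from intracellular vesicles to the apical plasma membrane and increases transcription of the Aqp2 gene. Water that enters a principal cell through AQP2 leaves through AQP3 and AQP4 in the basolateral membrane. AQP6 is known as an intracellular channel of acid-secreting intercalated cells, AQP11 as a channel of the endoplasmic reticulum, AQP1 as the channel of the proximal tubule and thin descending limb, AQP5 as the apical channel of salivary and lacrimal glands, and AQP8 as a channel of secretory and digestive epithelia.

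The study deleted Camk2d, which encodes the delta isoform of calcium/calmodulin-dependent protein kinase 2, in mpkCCD cells, a C57BL/6 mouse cortical collecting duct line. Each of 10 samples came from cells kept on permeable supports with dDAVP, a V2-receptor agonist, at 0.1 nM for 7 days (4 days in complete medium, then 3 in simple medium), so no sample without dDAVP was part of the comparison. The 5 intact samples came from the parental line (1 sample) and from 2 clones (2 samples each) that went through transfection without a Camk2d mutation, which makes 3 cell lines. The 5 KO samples were 5 single-cell-derived clones, each 1 line, of which KO 1 and KO 2 carry mutations made with the exon 8 guide and KO 3, KO 4 and KO 5 mutations made with the exon 9 guide. Cas9 was expressed with GFP from a CMV promoter, and GFP-positive cells were sorted singly. The guide of each clone was taken from the study's account of the mutations, not from the sample labels. Whether the paired samples of an intact clone were separate cultures is not given in the sources used here, so a p-value over samples may partly measure technical spread.

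Camk2d averaged 132 ± 6.97 TPM (SD, n = 5) over the intact group and 24.7 ± 3.65 TPM (SD, n = 5) over the KO clones. The highest KO value was 29.8 TPM and the lowest intact value 123 TPM, so the groups did not overlap. Principal-cell markers (Avpr2, ENaC subunits, Hsd11b2, Gata3, Elf5, Fxyd4 and Kcnj1) summed to 1300 to 1559 TPM in intact and 840 to 1514 TPM in KO samples, with Scnn1b, Elf5 and Kcnj1 under 1 TPM in all samples and with the lowest sum in KO 2. Intercalated-cell markers had sums of 23.8 to 31.0 TPM in intact and of 21.98 to 49.9 TPM in KO samples. Of these 8 markers, 7 were under 1 TPM in every sample and Atp6v1g3 and Kit were listed at 0 throughout. Proximal tubule markers summed to 7.54 to 13.0 TPM in intact and 6.53 to 15.1 TPM in KO samples, with Slc34a1 listed at 0 throughout. Markers of thick ascending limb, endothelium, fibroblasts and leukocytes summed to less than 1 TPM in every sample. Sequencing depth cannot be read from TPM, so the counting error of each value could not be estimated. In bulk RNA, fewer cells that express a gene cannot be told apart from less RNA per cell.

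Aqp2, Aqp5 and Aqp6 are neighbours on mouse chromosome 15. In the RefSeq annotation of GRCm38.p6, Aqp2 lies at chr15:99579056-99584545, Aqp5 at chr15:99591028-99594829 and Aqp6 at chr15:99598468-99605478, a span of 26423 bp with gaps of 6482 and 3638 bp between the genes. Members that lie apart from this group include Aqp1 on chromosome 6 (55336299 to 55348555), Aqp3 on chromosome 4 (41092724 to 41098183), Aqp8 on chromosome 7 (123462294 to 123468003) and Aqp11 on chromosome 7 (97726379 to 97738247). Promoter sequence was matched for 7 of the 8 members. The 250 bases upstream of the RefSeq start of each neighbour are shown 5′ to 3′ on the + strand, because these genes share a locus and differ in level. The windows lie at chr15:99578806-99579055 for Aqp2, chr15:99590778-99591027 for Aqp5 and chr15:99600950-99601199 for Aqp6. The Aqp6 window precedes the start used in the RefSeq promoter table and lies inside the annotated span of the gene, which begins further upstream.
Aqp2: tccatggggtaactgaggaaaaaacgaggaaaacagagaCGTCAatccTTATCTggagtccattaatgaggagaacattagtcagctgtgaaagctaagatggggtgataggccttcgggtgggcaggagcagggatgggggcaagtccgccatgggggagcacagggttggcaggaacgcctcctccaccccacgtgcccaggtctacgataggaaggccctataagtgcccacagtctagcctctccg
Aqp5: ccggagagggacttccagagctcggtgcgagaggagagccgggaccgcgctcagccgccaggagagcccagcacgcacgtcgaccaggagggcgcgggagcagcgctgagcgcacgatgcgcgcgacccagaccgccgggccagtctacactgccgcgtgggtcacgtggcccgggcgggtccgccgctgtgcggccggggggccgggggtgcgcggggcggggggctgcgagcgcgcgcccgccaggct
Aqp6: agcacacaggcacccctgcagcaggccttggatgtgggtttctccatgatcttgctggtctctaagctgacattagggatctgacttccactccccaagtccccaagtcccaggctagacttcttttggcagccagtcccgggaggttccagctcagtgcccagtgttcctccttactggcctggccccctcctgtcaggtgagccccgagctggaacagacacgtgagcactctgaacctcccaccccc
Capitals mark matches to the letters searched on both strands, of which the first was TGACGTCA, the cyclic AMP response element (CRE). The second was TGACG, its half-site, which every CRE also contains. The AP-1 letters were TGANTCA. The GATA letters were AGATAA. The Aqp2 window held a CRE half-site read on the other strand as CGTCA, 211 to 207 bases upstream of the start, and a GATA match read as TTATCT, 202 to 197 bases upstream. None of these letters occurred in the windows of the other 6 matched members. Of 32851 promoter windows of the same length, 17.8% held the CRE half-site, 9.99% the GATA letters, 6.75% the AP-1 letters and 1.55% the whole CRE. GC content was 55.6% in the Aqp2 window, 59.6% in the Aqp6 window and 78.4% in the Aqp5 window.

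Transcript levels of the aquaporins differed by orders of magnitude, and Aqp2 held nearly all of the family's RNA. Summed over the family, Aqp2 made up between 98.4% and 98.9% of the total in the intact group and between 96.5% and 98.3% in the KO group. Among all genes, Aqp2 ranked 3rd to 7th in the intact samples. In the KO clones it ranked 43rd in KO 1, 29th in KO 2, 6th in KO 3, 8th in KO 4 and 9th in KO 5. Aqp5 came next in every sample, with a mean over all samples of 52.5 TPM, and ranked between 3187 and 7772 among all genes. Mean levels over the 10 samples were 3.801 ± 1.87 TPM (SD) for Aqp6, 2.22 ± 3.12 TPM for Aqp4 and 2.08 ± 0.755 TPM for Aqp3. These spreads overlap, and the order of these genes within samples was not tested. Aqp11 followed at 0.407 ± 0.286 TPM, Aqp1 at 0.0640 ± 0.0504 TPM and Aqp8 at 0.0360 ± 0.0585 TPM. The spreads of these last 2 also overlap, and their order was not tested. Of the family genes outside the group, Mip, the lens fibre channel, was between 0.32 and 0.66 TPM, Aqp7 and Aqp9 reached at most 0.05 and 0.08 TPM, and Aqp12 was listed at 0 in all samples.

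**Figure D1:**
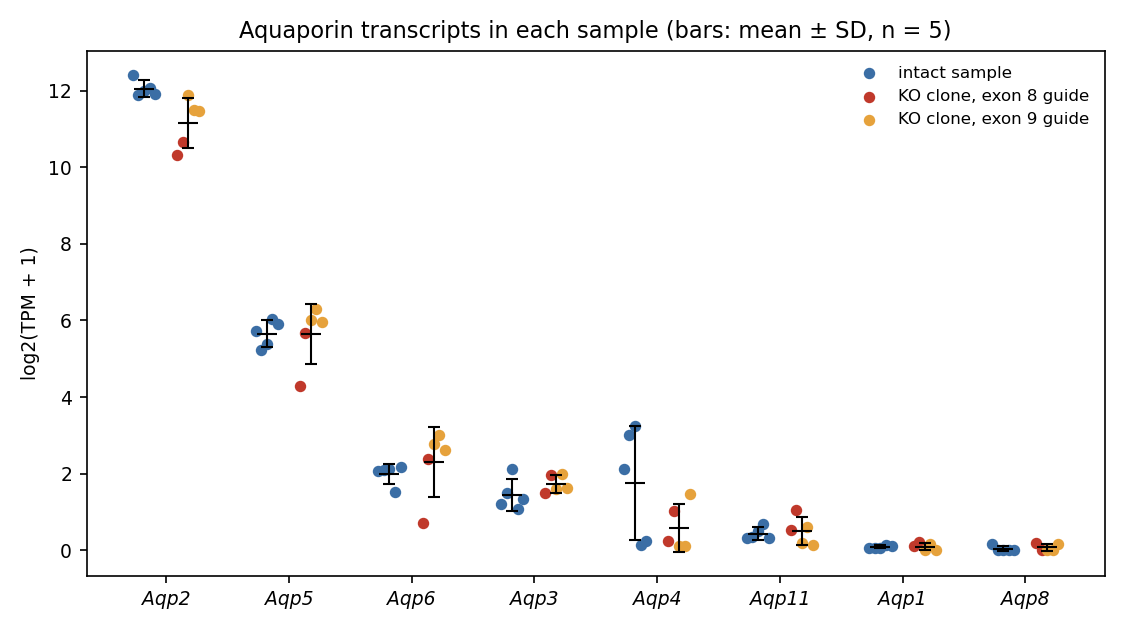
Level of each aquaporin on the log2(TPM + 1) scale in the 5 intact samples (blue) and in the KO clones from the exon 8 guide (red) and the exon 9 guide (orange). Black bars are the mean and SD of each group of 5. Aqp2 stands far above the others in every sample, KO 1 and KO 2 are the lowest for Aqp2, and intact values of Aqp4 fall into a high and a low set.

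Aqp2, the vasopressin-regulated channel, was lower in 4 of the 5 KO clones than in any intact sample. It was 5502 TPM in the parental line, 3773 and 4084 TPM in the samples of intact clone 1 and 4338 and 3890 TPM in those of intact clone 2. In the KO clones it was 1281 TPM in KO 1, 1618 TPM in KO 2, 3789 TPM in KO 3, 2880 TPM in KO 4 and 2856 TPM in KO 5. KO 3 lay just above the lowest intact sample, so the groups overlapped, and the exon 8 clones KO 1 and KO 2 were the lowest of all. The group means were 4318 ± 696 TPM (SD, n = 5) for intact and 2485 ± 1024 TPM (SD, n = 5) for KO, so the KO mean was 57.5% of the intact mean. The exon 8 clones were at 29.7% and 37.5% of that mean, and the exon 9 clones at 87.7%, 66.7% and 66.2%. On the log2(TPM + 1) scale the KO minus intact difference was -0.89 (SE 0.27, 95% CI -1.50 to -0.29). In limma over all genes tested this did not pass the threshold of 0.05 after Benjamini-Hochberg adjustment (limma adjusted p = 0.565). A two-sided exact permutation test of Aqp2 alone gave p = 0.0159. With 1 value per cell line (3 intact, 5 KO) the exact permutation test gave p = 0.0536, where 0.0179 is the smallest p that 56 arrangements can give.

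None of the 7 tested members passed the adjusted threshold for KO minus intact in limma, beside 0.005% of all genes tested (1 gene, Camk2d). At an unadjusted p under 0.05 the count was 1 of 7, Aqp2, beside 6.99% of all genes. No member had groups without overlap, beside 1.64% of all genes. The median difference was 0.01 over the 7 members and 0.02 over all 20000 genes.

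The exon 8 and the exon 9 clones were compared in a fit of 3 groups that share the intact samples. Aqp2 was lower in exon 8 clones than in intact samples by a log2 difference of -1.57 (SE 0.17, 95% CI -1.96 to -1.18, limma adjusted p = 0.00593). It was the 1 called member of 7, beside 0.595% of all genes. That p-value counts the 5 intact samples as independent, although they came from 3 cell lines. Whether the exon 8 call holds once shared cell lines are allowed for was not tested. In exon 9 clones the Aqp2 difference from intact was -0.44 (SE 0.15, 95% CI -0.78 to -0.10), which did not pass (limma adjusted p = 0.761). There no member of 7 was called, beside 0.005% of all genes, and 2 (Aqp2 and Aqp6) had an unadjusted p under 0.05, beside 5.5%. The direct contrast, exon 9 minus exon 8, was 1.13 for Aqp2 (SE 0.19, 95% CI 0.70 to 1.55), with a limma adjusted p of 0.0513, just over the threshold. In that contrast no member of 7 was called, beside 0.31% of all genes, while 4 (Aqp2, Aqp5, Aqp6 and Aqp11) had an unadjusted p under 0.05, beside 12.1%. Over the 20 alternatives run the adjusted p of Aqp2 ranged from 0.0302 to 0.161 and lay on either side of the threshold. It was 0.148 with 1 value per cell line, 0.0646 with cell line fitted as a random effect, and 0.161, 0.108 and 0.122 without KO 3, KO 4 and KO 5. Leaving out KO 1 gave 0.96 (adjusted p = 0.0433) and leaving out KO 2 gave 1.296 (adjusted p = 0.0302), but the exon 8 group was then a lone clone, assumed to vary like the other groups, and 1730 and 634 of 20000 genes were called. The exon 8 group held 2 clones, so guide and clone cannot be told apart. KO 2 also had the lowest Avpr2 level, 114 TPM against 222 to 251.8 TPM in intact samples. Its principal-cell marker sum was 840 TPM while that of KO 1 was 1319 TPM. Most of the intact sum came from Fxyd4, a regulator of the sodium pump, at 706 TPM in intact samples and 194 TPM in the lowest KO clone. The markers did not move together. In exon 8 clones the log2 difference from intact was -1.05 for Fxyd4 and -0.66 for Avpr2, but 0.90 for Hsd11b2 and 0.20 for Scnn1a, and none of them was called. The part of these values in the Aqp2 level was not tested.

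**Figure D2:**
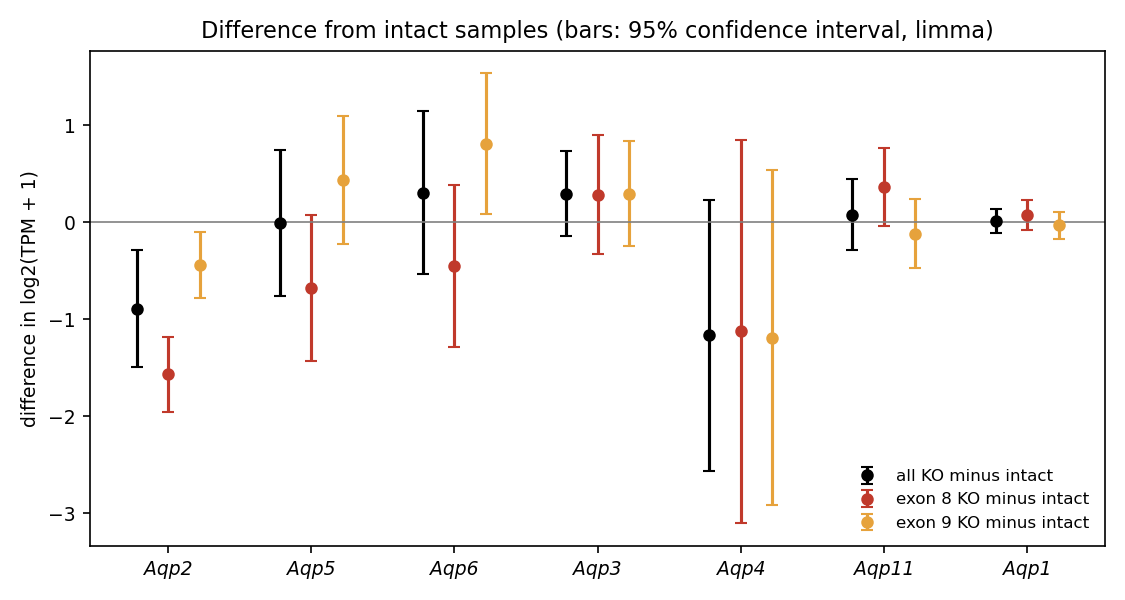
Difference in log2(TPM + 1) from the intact samples for the 7 tested aquaporins, over all 5 KO clones (black), the 2 exon 8 clones (red) and the 3 exon 9 clones (orange), with 95% confidence intervals from limma that are not adjusted for the number of genes. For Aqp2 all 3 intervals lie below 0, and for Aqp5 and Aqp6 the exon 8 and exon 9 values lie on opposite sides of 0.

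Aqp5, the gland channel next to Aqp2, was lower in KO 1 than in any intact sample, while the KO clones as a group lay on both sides of the intact mean. It was 51.9 TPM in the parental line, 36.4 and 40.5 TPM in intact clone 1 and 64.7 and 59.6 TPM in intact clone 2. In the KO clones it was 18.5 TPM in KO 1, 50.0 TPM in KO 2, 63.5 TPM in KO 3, 78.1 TPM in KO 4 and 61.5 TPM in KO 5. KO 1 was the lowest and KO 4 the highest of all samples, and the other KO clones lay within the intact range. The means were 50.6 ± 12.1 TPM (SD, n = 5) in intact and 54.3 ± 22.4 TPM (SD, n = 5) in KO samples. The log2 difference was -0.01 (SE 0.34, 95% CI -0.76 to 0.74, limma adjusted p = 0.998, exact permutation p = 0.976). This interval spans changes of Aqp5 in either direction, and the difference was 0.33 without KO 1. In exon 8 clones the difference from intact was -0.68 (95% CI -1.44 to 0.08, limma adjusted p = 0.392).

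Aqp6, the intracellular vesicle channel, was at a few TPM and was highest in the exon 9 clones. It was 3.22 TPM in the parental line, 3.24 and 3.33 TPM in intact clone 1 and 1.88 and 3.49 TPM in intact clone 2. In the KO clones it was 0.64 TPM in KO 1, 4.18 TPM in KO 2, 5.77 TPM in KO 3, 7.11 TPM in KO 4 and 5.15 TPM in KO 5. All KO clones except KO 1 were above the highest intact sample, and KO 1 was below the lowest. The means were 3.03 ± 0.653 TPM (SD, n = 5) in intact and 4.57 ± 2.44 TPM (SD, n = 5) in KO samples. The log2 difference of 0.30 (SE 0.38, 95% CI -0.53 to 1.14) did not pass (limma adjusted p = 0.877, exact permutation p = 0.516). It was 0.70 without KO 1, and 0.19 without KO 3, 0.12 without KO 4 and 0.19 without the low sample of intact clone 2. In exon 9 clones the difference from intact was 0.81 (SE 0.32, 95% CI 0.08 to 1.53, limma adjusted p = 0.887).

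For exon 9 minus exon 8 the log2 difference was 1.12 for Aqp5 (SE 0.37, 95% CI 0.29 to 1.94, limma adjusted p = 0.291) and 1.26 for Aqp6 (SE 0.41, 95% CI 0.35 to 2.17, adjusted p = 0.283). Both values rested on KO 1. Without KO 1 they were 0.42 and 0.43. Without KO 2 they were 1.81 and 2.09, with limma adjusted p = 0.0258 for Aqp5 and 0.00817 for Aqp6. That fit sets KO 1 alone, assumed to vary like the other groups, against the exon 9 clones, and it called 634 of 20000 genes. Between the exon 8 clones themselves, Aqp2 was 1281 TPM in KO 1 and 1618 TPM in KO 2, while Aqp5 was 18.5 and 50.0 TPM and Aqp6 0.64 and 4.18 TPM. KO 1 was thus low for all 3 neighbours, and KO 2 was low for Aqp2 alone.

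**Figure D3:**
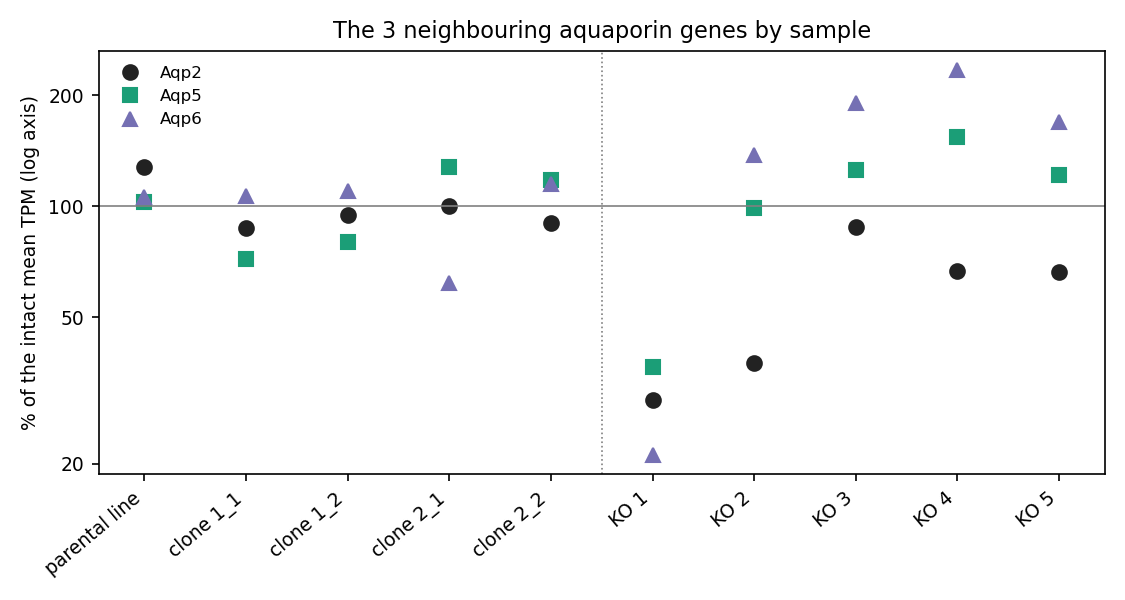
TPM of Aqp2 (circles), Aqp5 (squares) and Aqp6 (triangles) in each sample as a percentage of the mean of the 5 intact samples, on a log axis. In KO 1 the values are 29.7%, 36.5% and 21.1%, in KO 2 they are 37.5%, 98.8% and 138%, and in KO 3, KO 4 and KO 5 Aqp2 is below 100% while Aqp5 and Aqp6 are above it.

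Over the means of the 8 cell lines, Pearson's r of log2(TPM + 1) was 0.90 between Aqp5 and Aqp6 (Spearman's rho 0.69), and it was 0.63 without KO 1. For Aqp2 with Aqp5 r was 0.58 over 8 lines and -0.08 without KO 1, and for Aqp2 with Aqp6 it was 0.42 and -0.39. The Aqp2 relations thus rested on KO 1. These values describe 8 lines that share a parental line, and 5 of them also share the loss of Camk2d.

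No other gene near the locus was called for KO minus intact or for exon 9 minus exon 8. The nearest gene on the far side of Aqp6 is Racgap1, which encodes a GTPase-activating protein of cytokinesis. It was 177 TPM in intact and 183 TPM in KO samples (log2 difference 0.04, limma adjusted p = 0.947), with 159 TPM in KO 1 and 227 TPM in KO 2. Asic1, an acid-sensing ion channel gene, had a log2 difference of 0.16 (adjusted p = 0.820) and Faim2 one of -0.06 (adjusted p = 0.950). These neighbours were named with their values already known, and they were not tested against Aqp2.

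Aqp3, the basolateral water and glycerol channel, was low in these cells. It was 1.29 TPM in the parental line, 1.82 and 3.34 TPM in intact clone 1, 1.10 and 1.51 TPM in intact clone 2, and 1.79, 2.92, 2.02, 2.96 and 2.09 TPM in KO 1 to KO 5. All KO values lay within the intact range, whose highest value came from 1 sample of intact clone 1. The means were 1.81 ± 0.895 TPM (SD, n = 5) in intact and 2.36 ± 0.545 TPM (SD, n = 5) in KO samples. The log2 difference was 0.29 (SE 0.20, 95% CI -0.15 to 0.73, limma adjusted p = 0.796, exact permutation p = 0.206), and 0.46 without that highest intact sample (adjusted p = 0.815). The exon 9 minus exon 8 difference was 0.01 (95% CI -0.66 to 0.68, adjusted p = 1.00). The samples of intact clone 1 differed by 0.62 on the log2 scale, as much as the 0.61 between the intact clones.

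Aqp4, the other basolateral water channel, whose gene is on chromosome 18, varied widely among the intact lines themselves. It was 3.31 TPM in the parental line, 7.00 and 8.54 TPM in intact clone 1, and 0.10 and 0.18 TPM in intact clone 2. The KO clones had 0.17 TPM (KO 1), 1.02 TPM (KO 2), 0.07 TPM (KO 3), 0.07 TPM (KO 4) and 1.77 TPM (KO 5). All KO clones were below the parental line and intact clone 1, and 3 of them (KO 1, KO 2 and KO 5) were above the lower sample of intact clone 2. The means were 3.83 ± 3.86 TPM (SD, n = 5) in intact and 0.620 ± 0.757 TPM (SD, n = 5) in KO samples. The log2 difference of -1.17 (SE 0.63, 95% CI -2.57 to 0.23) did not pass (limma adjusted p = 0.759, exact permutation p = 0.143). It was -1.90 with a pseudocount of 0.1 and ran from -1.57 to -0.79 with each sample left out, and none of these fits called it. Exon 8 and exon 9 clones were at -1.13 and -1.19 from intact, and the 95% CI of the difference between them ran from -2.22 to 2.09. Intact clone 2 was lower than intact clone 1 by a log2 difference of -2.94, while the samples of each clone differed by 0.25 and 0.10. Among 8 cell lines, with the spread taken from the paired samples of the intact clones, Aqp4 differed (limma moderated F of 122, adjusted p = 0.0401). It was the 1 called member of 7, beside 3.6% of all genes, and stayed under the threshold in all 8 alternatives run (adjusted p from 0.0149 to 0.04496). The other lines had 1 sample each, and the paired samples may not be separate cultures, so the spread in this F test may be technical only. Aqp2 and Aqp5 lay at the threshold in that test (adjusted p = 0.0502 and 0.0555), Aqp6 at 0.196 and Aqp3 at 0.521. In GENCODE M21 an antisense gene overlaps Aqp4, and because the library kit does not mark strand, reads on bases that both cover cannot be told apart, and how many there are was not measured.

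**Figure D4:**
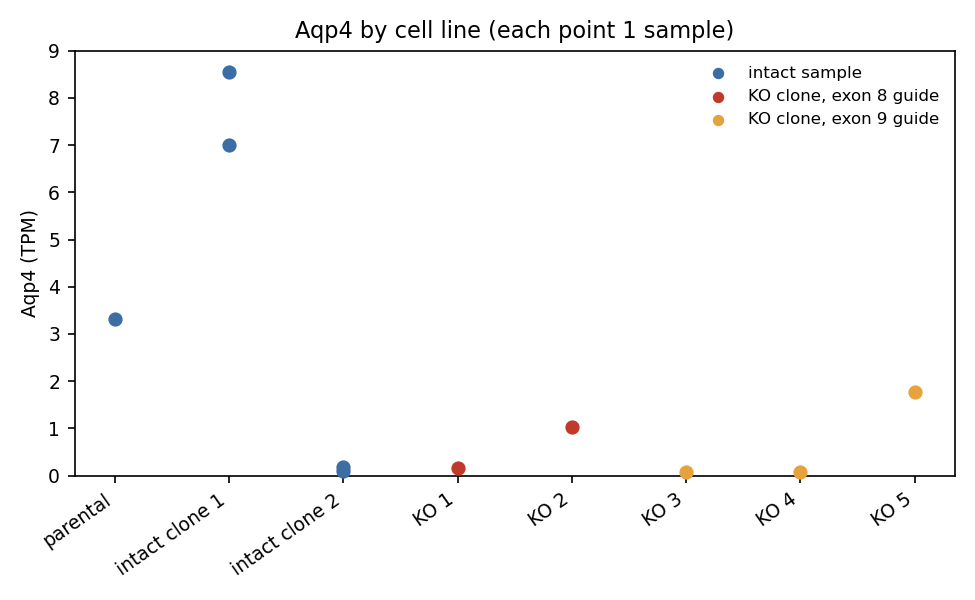
Aqp4 in TPM for each of the 8 cell lines, with 1 point per sample (intact blue, exon 8 KO clones red, exon 9 KO clones orange). The samples of intact clone 1 are at 7.00 and 8.54 TPM and those of intact clone 2 at 0.10 and 0.18 TPM, near the lowest KO clones.

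The remaining members were at or near 0. Aqp11, the channel of the endoplasmic reticulum, was between 0.24 and 0.61 TPM in intact and between 0.10 and 1.07 TPM in KO samples, with the highest value in KO 2. Its log2 difference was 0.07 (SE 0.17, 95% CI -0.29 to 0.44, limma adjusted p = 0.941), and the exon 9 minus exon 8 difference was -0.48 (95% CI -0.92 to -0.04, adjusted p = 0.390). The latter was -0.22 without KO 2, -0.74 without KO 1 and -1.36 with a pseudocount of 0.1, and it was not called in any of these fits. Aqp1, the proximal tubule channel, was between 0.04 and 0.10 TPM in intact samples, and in KO clones it was listed at 0 in KO 3 and KO 5 and reached 0.16 TPM in KO 2. Its log2 difference was 0.01 (95% CI -0.12 to 0.13, limma adjusted p = 0.988). Aqp8 was listed at 0 in 7 of 10 samples, with 0.11 TPM in the parental line, 0.14 TPM in KO 1 and 0.11 TPM in KO 5 (exact permutation p = 0.722).

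Taken against Aqp2 in the same sample, Aqp5, Aqp6 and Aqp3 made up a larger share in KO clones, where Aqp2 itself was lower. Aqp5 was 0.943%, 0.964%, 0.993%, 1.49% and 1.53% of the Aqp2 TPM in the intact samples (parental line, clone 1, clone 2) and 1.44%, 3.09%, 1.68%, 2.71% and 2.15% in KO 1 to KO 5. Of the KO clones, 4 lay above every intact sample. The difference in log2((Aqp5 + 1)/(Aqp2 + 1)) was 0.88 (exact permutation p = 0.0159), close to the size of the Aqp2 difference itself (-0.89, with -0.01 for Aqp5). Aqp6 was 0.0433% to 0.0897% of Aqp2 in intact samples, 0.05% in KO 1 and 0.152% to 0.258% in the other KO clones. With the pseudocount of 1 its log2 ratio was higher in all 5 KO clones than in any intact sample and differed by 1.20 (exact permutation p = 0.00794, the smallest that 5 against 5 samples can give). Without the pseudocount, an alternative added after the data were seen, KO 1 lay within the intact range and the difference was 1.16 (exact permutation p = 0.0476). Aqp3 was 0.0234% to 0.0818% of Aqp2 in intact and 0.0533% to 0.1805% in KO samples, with 3 KO clones above every intact sample, and its log2 ratio differed by 1.18 (exact permutation p = 0.0159). For Aqp4 the log2 ratio difference was -0.27 (exact permutation p = 0.698), and its size depended on the pseudocount, at -1.003 with 0.1 and -1.35 with none (exact permutation p = 0.508 and 0.429). The ratios of Aqp8 (0.93, p = 0.0159), Aqp1 (0.90, p = 0.0238) and Aqp11 (0.97, p = 0.0714), from the same exact permutation test, also follow the level of Aqp2, since these genes were near 0 TPM. All 7 ratios share the Aqp2 level as their denominator, so they are not independent of each other, and their p-values are not adjusted. With 1 value per cell line the exact permutation p was 0.0536 for Aqp5 and for Aqp3 and 0.0357 for Aqp6.

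**Figure D5:**
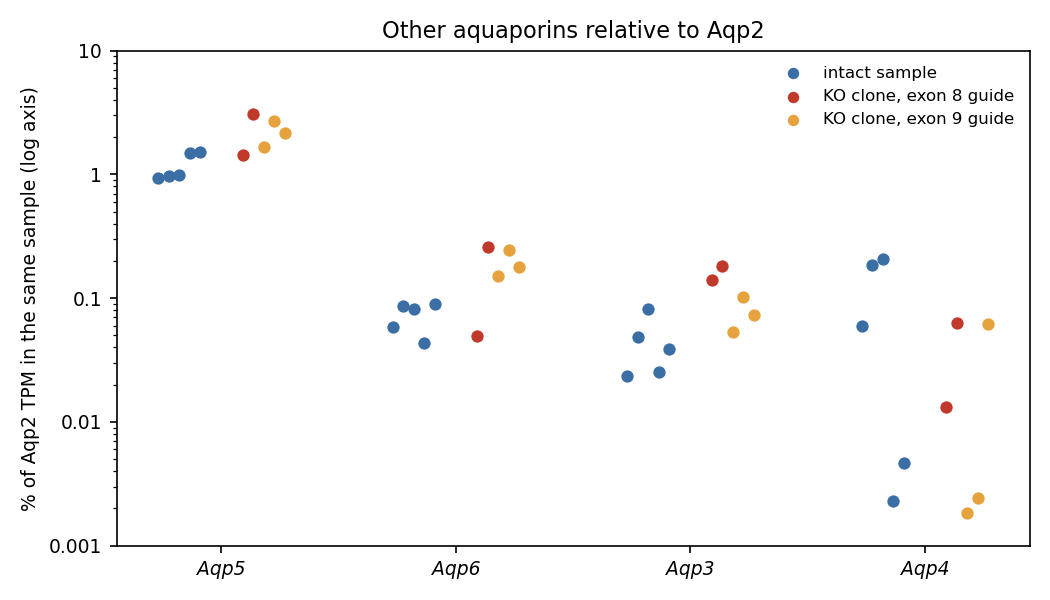
Aqp5, Aqp6, Aqp3 and Aqp4 as a percentage of the Aqp2 TPM of the same sample, on a log axis, in intact samples (blue) and in KO clones of the exon 8 (red) and exon 9 guide (orange). Above every intact sample lie 4 of 5 KO clones for Aqp5 and 3 of 5 for Aqp3. For Aqp6, KO 1 lies within the intact range at 0.05%, and Aqp4 spreads widely in both groups.

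Genes that act on AQP2 showed no change that passed the test. None of 12 genes of V2 receptor and cyclic AMP signalling was called in limma, with 2 at an unadjusted p under 0.05 and a median log2 difference of 0.05, where 0.005% of all genes were called, 6.99% had an unadjusted p under 0.05 and the median was 0.02. Itpr3, an inositol trisphosphate receptor that releases calcium, was 18.0 ± 2.09 TPM (SD, n = 5) in intact and 22.1 ± 1.94 TPM (SD, n = 5) in KO samples (0.29, limma adjusted p = 0.564). Avpr2, the V2 receptor, was 235 ± 11.2 TPM and 205 ± 56.8 TPM (-0.25, limma adjusted p = 0.820). None of 17 genes of AQP2 trafficking was called, with 1 at an unadjusted p under 0.05, a share near that over all genes, and a median of 0.01. Myo5b, a motor of recycling vesicles, was 16.5 ± 0.573 TPM in intact and 13.4 ± 1.61 TPM in KO samples (-0.29, limma adjusted p = 0.524). Nedd4, a ubiquitin ligase, was 272 ± 10.7 TPM and 309 ± 104 TPM (0.13, limma adjusted p = 0.878). Of 14 genes listed for Aqp2 transcription, 12 were tested and none was called, with 1 at an unadjusted p under 0.05 and a median of 0.06. Gata2, a zinc-finger factor, was 3.16 ± 1.74 TPM in intact and 4.91 ± 3.68 TPM in KO samples (0.27, limma adjusted p = 0.930).

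The genes whose level over the means of the 8 cell lines was most like each aquaporin were found by Pearson's r of log2(TPM + 1) among 12965 genes with a mean of at least 1 TPM. For Aqp2 these included 2810039B14Rik (r = 0.98), the ribosomal protein gene Rps21 (0.96), Fam3c (0.94) and Gsdmcl2 (0.94). For Aqp5 they were 9930111J21Rik1 (0.97), Reps1 (0.96), Gm12571 (0.96), Arhgef18 (0.95) and Lig4 (0.95). For Aqp6 they were Pard3 (0.99), Brf2 (0.98), N4bp1 (0.97), Tcf25 (0.97) and Gm10557 (0.96). For Aqp4 they were Snora57 (0.94), Spink8 (0.93), Nectin3 (0.91), G2e3 (0.90) and Gm14686 (0.90), and for Aqp3 they were Etaa1 (0.96), Hmbox1 (0.94), Atad5 (0.93), Nup107 (0.93) and Spats2 (0.93). No aquaporin was among the closest genes of another. These were picked as the 5 highest r of 12965 for each member, over 8 points that include KO 1, and are given as a description. Pearson's r takes no account of the size of a change, and all of these genes varied less than their aquaporin. The log2 SD over the lines was 0.09 for Reps1 against 0.63 for Aqp5, and 0.12 for Pard3 against 0.71 for Aqp6. Closer in size was Gm14686, at 0.95 against 1.12 for Aqp4.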

How the data were processed

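RNA from 10 mpkCCD samples was made into amplified full-length cDNA libraries and sequenced as 50-bp pairs. Per the labels and the study's methods, the authors aligned reads with STAR and quantified Ensembl genes with RSEM with the Ensembl annotation. The deposited values are TPM per gene, with 1 column per sample and 0 value columns left unused. TPM sum to the same total in every sample, so depth is unknown and a 0 is reported as listed at 0. Expected counts, on which the study ran its own test, were not used here.

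The 20000 genes with the highest mean TPM (lowest mean 0.049) were compared on log2(TPM + 1), a scale with a pseudocount of 1 that understates the change of low genes. The tool was limma 3.58.1 in R 4.3.3 (intensity trend, two-sided, Benjamini-Hochberg adjustment, threshold 0.05) as KO against intact, as 3 groups (intact, exon 8 KO, exon 9 KO) and as 8 cell lines. Single genes and ratios to Aqp2 were compared with two-sided exact permutation tests over samples (Python 3.11.15, numpy 2.4.6, pandas 2.3.3). Figures were drawn with matplotlib 3.10.9. On simulated data with 200 of 20000 genes changed by a log2 ratio of 1, limma recovered 89.5% for KO minus intact and 78% for exon 9 minus exon 8. The changed genes were drawn only from those with a mean log2(TPM + 1) above 1. The simulated noise was independent between samples, without differences between cell lines. These shares thus do not give the power for low genes or for samples that share a cell line.

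Groups came from the genotype labels. The named genes are all 8 members, 4 further family genes as levels, Camk2d as the check of the labels, the 5 genes most alike in pattern to each member with a mean of at least 1 TPM, and, from each pathway list, called genes or else the 2 largest differences among genes with a mean of at least 1 TPM. Members and lists were chosen with earlier results of these data known. Alternatives changed 1 choice at a time: pseudocount (0.1 or 0.5), gene filter, median-ratio or quantile scaling, no trend or robust moderation, 1 value per cell line, cell line as a random effect (statmod 1.5.0, consensus correlation 0.606), 1 guide alone and each sample left out. Ratios with no pseudocount and correlations without some lines were added after the data were seen. Promoters and positions are RefSeq on GRCm38.p6. The authors' build may differ, and the file held no coordinates. At least 99.888% of the 50-base windows of each member's GENCODE M21 transcripts occurred in no other gene. Protein sequences were not used here, and some genes that the rule names are not reported here.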

Additional observations from a re-analysis of the deposited data

Results flagged for a closer look

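In each group of 5 samples and for each aquaporin, the gap between the most extreme sample and its nearest neighbour was divided by the range of log2(TPM + 1). The ratio was above 0.71 in 3 of the 16 sets of 5 samples. Chance flags about 1 in 20 groups.

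Aqp6 was low in 1 sample of intact clone 2 (1.88 TPM, ratio 0.860), while the other sample of the same clone had 3.49 TPM, the highest of the intact group. Aqp6 was also low in KO 1 (0.64 TPM, ratio 0.720), where the other KO clones had 4.18 to 7.11 TPM. Aqp8 was 0.11 TPM in the parental line and listed at 0 in the other intact samples (ratio 1.0). With the others tied at 0, that ratio would be the same for any value above 0, and the chance rate does not apply to it.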

How the results depend on the processing

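Alternatives left most aquaporin values on the same side of the threshold, and the exceptions follow. Their cause was not tested unless stated. For KO minus intact, the number of called genes was 1 as reported, 2 with a pseudocount of 0.1, 50 with the exon 8 clones alone and 1 to 2 with each sample left out. The number of called aquaporins was 0 in all these settings except with the exon 8 clones alone, where it was 1 (Aqp2, -1.57, limma adjusted p = 0.0354). The fit with the exon 8 clones alone also counts the paired samples of the intact clones as independent. In the other alternatives the adjusted p of Aqp2 was 0.442 or more. Differences near 0 changed sign without being called: Aqp5 was 0.44 with the exon 9 clones alone and -0.17 to 0.33 with each sample left out, Aqp6 was -0.45 with the exon 8 clones alone, Aqp11 was -0.12 with the exon 9 clones alone and -0.0627 to 0.165 with each sample left out, and Aqp1 was -0.018 with a pseudocount of 0.1, -0.0335 with the exon 9 clones alone and -0.0216 to 0.0319 with each sample left out.

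For exon 9 minus exon 8, the number of called genes was 62 as reported, 6 with 1 value per cell line, 36 with cell line fitted as a random effect and 21 to 1730 with each sample left out (1730 without KO 1 and 634 without KO 2, 21 to 31 without one of the others except the parental line). The number of called aquaporins was 0 as reported, 0 to 3 with each sample left out, and 1 (Aqp2) with a pseudocount of 0.1 or 0.5, with genes of at least 1 TPM, with median-ratio scaling and with robust moderation (adjusted p from 0.0365 to 0.0487). In the settings that called Aqp2 with all samples kept, 71 of 20000 genes were called with a pseudocount of 0.1 and 68 with 0.5. Median-ratio scaling called 64 of 20000, robust moderation 70 of 20000 and the filter of at least 1 TPM 64 of 13047. With each sample left out, Aqp4 ranged from -0.52 to 0.33 and Aqp3 from -0.23 to 0.26. Among the 8 lines, the number of called genes of 20000 was 719 as reported, 1201 with robust moderation and 452 without a trend. With a pseudocount of 0.1 it was 1062, with 0.5 it was 871 and with median-ratio scaling 696. It was 998 of 13047 with genes of at least 1 TPM and 3448 of 26023 with all genes above 0. The number of called aquaporins was 1 as reported, 2 with a pseudocount of 0.1 or 0.5 or median-ratio scaling and 3 with genes of at least 1 TPM or robust moderation. It was 4 with all genes above 0, namely Aqp2, Aqp4, Aqp5 and Aqp8. Aqp8 enters only the fits with that filter and is listed at 0 in 7 of 10 samples. These include all paired samples of the intact clones, from which the spread is taken, so its call cannot be read as a difference.

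Relative to Aqp2, the number of ratios with an exact permutation p under 0.05 was 5 as reported, 3 with a pseudocount of 0.1, 1 with 1 value per cell line, 3 with the exon 9 clones alone and 4 to 6 with each sample left out. The Aqp4 ratio was 0.44 with the exon 8 clones alone and -0.68 to 0.12 with each sample left out. No paired analysis was possible because the intact and KO samples came from different cell lines. The unknown depth limits Aqp1, Aqp8 and Aqp11 most, which lie near 0 TPM.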
